A study of Mus musculus with 7 samples.

Results

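The genes described here were those that encode the replication-dependent histones, taken as every row of the count files whose symbol begins with Hist1h, Hist2h, Hist3h or Hist4h. They numbered 68 of 23413 symbols. Of these, 6 encoded the linker histone H1, 18 encoded H2A, 19 H2B, 12 H3 and 13 H4. Cortex RNA came from 13-month-old APP/PS1 mice, a transgenic line used as a model of Alzheimer's disease, so all groups carried the transgenes of that line. Mice were singly housed and fed for 7 months, from an age of 6 months, either the control diet (CD, SD in the labels) or the ketogenic diet (KD). CD gave 74% of its energy as carbohydrate, 16% as fat and 10% as protein, and KD gave less than 0.5%, 90% and 10%. There were 4 CD and 3 KD libraries, 1 per mouse, made from total RNA. No wild-type group is part of the comparison, so the values describe the diets within the transgenic line, and the sex of the mice behind the libraries is not given in the sources used here.

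Replication-dependent histone genes supply the nucleosome proteins that newly copied DNA needs, and in cycling cells their mRNAs are made mainly during S phase. They lie in clusters, most of them have no introns, and their mRNAs usually end in a conserved stem-loop where other mRNAs carry a poly(A) tail. The stem-loop binding protein and the U7 small nuclear ribonucleoprotein direct that cut. Replacement histones such as H3f3b, which have ordinary polyadenylated mRNAs and are made throughout the cell cycle, supply chromatin in cells that no longer divide. Since most cells of the adult cortex do not divide, and since a library made from total RNA keeps mRNAs with and without a poly(A) tail, both kinds of histone mRNA could be counted here. The genes were chosen with their KD against CD values in view. Those values are therefore a description. Calls from edgeR's test are given below, and nothing is read from them.

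Of the 68 genes, 54 lie on chromosome 13, 10 on chromosome 3, 3 on chromosome 11 and 1 on chromosome 6. The chromosome 13 genes form 2 blocks, one of 23 genes from 21715763 to 22043676 and one of 31 genes from 23531050 to 23934851 (GRCm38, GENCODE M21). All 68 matched a GENCODE gene of the same symbol, and 1 of them, Hist3h2bb-ps, is annotated as a processed pseudogene. The name of the set was checked against the sequence of each annotated transcript. The stem-loop was searched on the transcript strand as the 16 letters given in capitals below, with any base allowed at positions 3, 4, 10, 13 and 14. It was present in 44 of the 68 genes. In protein-coding transcripts of all other genes it was present in 52 of 58725, or 0.0886%. It was found in 4 of 6 H1 genes, 11 of 18 H2A, 10 of 19 H2B, 8 of 12 H3 and 11 of 13 H4 genes. In the other 24 genes the letters were not in the annotated transcript. Some annotated transcripts end at or near the stop codon, and those of Hist1h1a and Hist2h3b end inside the motif.

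Stem-loops of some genes of each family are shown because they separate H4 from the other families. These are examples, and some genes with more counts are left out. Each is printed 5′ to 3′ as DNA letters of the GENCODE M21 transcript (GRCm38), with the 16-base stem-loop in capitals and 5 bases on either side.
Hist1h1c, H1, stem-loop at chr13:23739512-23739527, plus strand: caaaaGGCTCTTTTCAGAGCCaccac
Hist1h1e, H1, stem-loop at chr13:23621782-23621797, minus strand: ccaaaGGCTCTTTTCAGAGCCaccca
Hist3h2a, H2A, stem-loop at chr11:58955172-58955187, plus strand: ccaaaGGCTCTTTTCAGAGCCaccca
Hist1h2be, H2B, stem-loop at chr13:23585531-23585546, minus strand: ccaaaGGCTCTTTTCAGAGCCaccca
Hist1h2bb, H2B, stem-loop at chr13:23747203-23747218, plus strand: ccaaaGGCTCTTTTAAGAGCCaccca
Hist1h3e, H3, stem-loop at chr13:23561903-23561918, minus strand: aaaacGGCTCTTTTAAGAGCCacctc
Hist1h4c, H4, stem-loop at chr13:23698089-23698104, minus strand: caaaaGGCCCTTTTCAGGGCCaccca
Hist1h4d, H4, stem-loop at chr13:23581950-23581965, plus strand: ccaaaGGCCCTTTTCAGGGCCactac
Hist2h4, H4, stem-loop at chr3:96262939-96262954, minus strand: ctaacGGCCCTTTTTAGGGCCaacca
Hist1h4b, H4, stem-loop at chr13:23757366-23757381, plus strand: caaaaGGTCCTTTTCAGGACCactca
The form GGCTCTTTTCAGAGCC was the most frequent, in 26 genes of the H1, H2A, H2B and H3 families and in no H4 gene. H4 genes held 3 other forms. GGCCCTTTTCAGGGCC was present in 7 of them, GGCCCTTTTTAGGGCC in 2 and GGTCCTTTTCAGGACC in 2, and no gene of another family held any of these. A further 6 genes, in H1, H2B and H3, held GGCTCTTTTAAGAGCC, and Hist2h2ac alone held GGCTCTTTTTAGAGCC.

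Promoter sequences were found for 62 of the 68 genes, as 63 stretches of 250 bases before to 50 bases after the start (RefSeq, GRCm38.p6). The stretches below are those of 2 H1 genes, 3 H4 genes and the gene with the most counts. Capitals mark matches on either strand to the TATA box, searched as TATAAA. They also mark the CCAAT box, which reads ATTGG on the opposite strand. An element known from H1 promoters was searched with the letters AAACACA. That of H4 promoters was searched with the letters GGTCC, which read GGACC on the opposite strand.
Hist1h1e, H1, chr13:23622509-23622808, minus strand: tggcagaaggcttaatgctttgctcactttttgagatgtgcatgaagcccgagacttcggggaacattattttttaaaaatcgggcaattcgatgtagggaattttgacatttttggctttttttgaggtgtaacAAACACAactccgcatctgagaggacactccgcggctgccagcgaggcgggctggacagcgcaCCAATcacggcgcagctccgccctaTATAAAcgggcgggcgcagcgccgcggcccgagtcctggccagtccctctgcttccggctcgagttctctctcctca
Hist1h1c, H1, chr13:23738557-23738856, plus strand: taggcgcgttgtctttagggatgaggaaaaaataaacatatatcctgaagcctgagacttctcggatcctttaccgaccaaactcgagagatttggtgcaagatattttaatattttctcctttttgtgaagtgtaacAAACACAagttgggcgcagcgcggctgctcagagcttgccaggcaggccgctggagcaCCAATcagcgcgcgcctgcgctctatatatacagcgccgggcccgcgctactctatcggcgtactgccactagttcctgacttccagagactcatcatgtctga
Hist1h4c, H4, chr13:23698409-23698708, minus strand: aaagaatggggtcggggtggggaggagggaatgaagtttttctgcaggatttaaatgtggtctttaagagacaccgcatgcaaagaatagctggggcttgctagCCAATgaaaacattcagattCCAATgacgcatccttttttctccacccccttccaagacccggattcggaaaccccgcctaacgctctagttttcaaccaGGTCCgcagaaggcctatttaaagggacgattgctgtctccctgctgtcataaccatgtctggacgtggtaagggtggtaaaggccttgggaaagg
Hist1h4d, H4, chr13:23581318-23581617, plus strand: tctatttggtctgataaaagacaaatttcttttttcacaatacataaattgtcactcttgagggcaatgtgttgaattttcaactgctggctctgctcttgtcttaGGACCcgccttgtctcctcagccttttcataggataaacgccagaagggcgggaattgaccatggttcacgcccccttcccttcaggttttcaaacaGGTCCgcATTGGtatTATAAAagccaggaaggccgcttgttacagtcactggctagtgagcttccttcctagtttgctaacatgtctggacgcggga
Hist1h4k, H4, chr13:21750504-21750803, minus strand: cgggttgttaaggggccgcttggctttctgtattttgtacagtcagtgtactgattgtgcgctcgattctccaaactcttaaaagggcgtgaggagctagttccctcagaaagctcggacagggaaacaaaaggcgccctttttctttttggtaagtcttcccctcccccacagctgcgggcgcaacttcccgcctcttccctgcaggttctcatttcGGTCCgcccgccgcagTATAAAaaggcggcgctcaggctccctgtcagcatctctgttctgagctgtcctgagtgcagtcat
Hist2h2bb, H2B, chr3:96269450-96269749, plus strand: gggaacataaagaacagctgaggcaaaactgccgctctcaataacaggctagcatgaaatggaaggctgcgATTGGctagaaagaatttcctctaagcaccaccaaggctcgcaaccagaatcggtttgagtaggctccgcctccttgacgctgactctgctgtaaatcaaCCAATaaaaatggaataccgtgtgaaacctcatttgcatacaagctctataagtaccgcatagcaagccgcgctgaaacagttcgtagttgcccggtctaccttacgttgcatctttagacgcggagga
CCAAT, the letters bound by nuclear factor Y, was present in 85.7% of the 63 histone promoters and in 37.3% of 32788 promoters of other genes. All promoters of the H1, H2A, H2B and H3 families held it, and 3 of 12 H4 promoters did. AAACACA was present in 5 of 6 H1 promoters, against 7.17% of other genes, and in no H3 or H4 promoter. GGTCC was present in 11 of 12 H4 promoters, against 45.5% of other genes. TATAAA was present in 55.6% of histone promoters and 13.5% of the others. Matches to neighbouring elements can share letters, each element was counted on its own, and a match describes the sequence only.

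Libraries held 22272883 to 36614954 counts, and the 68 genes together took 3805 to 10144 of them. A principal component analysis of log2 CPM gave a first component of 35.0% of the variance that set CD replicate 4 at 39.5 and KD replicate 3 at 46.7, apart from the other libraries at -25.2 to 2.39. The tissue was checked with 8 markers of cortical projection neurons. All 8 were detected, and their summed level ranged from 1350 to 1982 counts per 1000000 counts of the library (CPM) in the 7 libraries. Of the 8, 6 had a log2 fold change below 0 in KD over CD and 2 above, with a median of -0.28 that was 0.04 without KD replicate 3. Slc17a7, the vesicular glutamate transporter, and Camk2a had the most counts of these and were the 2 above 0, with log2 fold changes of 0.08 ± 0.14 and 0.28 ± 0.17 (SE). No pair of libraries of the same diet was a repeat of 1 library, since the chi-square per gene between them was 16.1 to 68.3, where sampling noise alone gives about 1.

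Counting placed a large part of the reads on a few genes. The 15 genes with the highest mean CPM held 85.2% of the summed level, and Hist2h2bb, an H2B gene on chromosome 3, held 22.3%. Hist3h2a, an H2A gene on chromosome 11, was next at 25.6 ± 3.54 CPM (SD, n = 4) in CD and 24.4 ± 2.66 CPM (SD, n = 3) in KD. Hist1h1e and Hist1h1c, which encode the H1.4 and H1.2 linker histones, followed with CD means of 21.6 and 20.4 CPM. This order by CPM takes no account of transcript length, so levels of different genes were also compared per length. Per kilobase of the longest GENCODE transcript, the mean over the 7 libraries was 126 CPM for Hist2h2bb and 12.5 for Hist3h2ba. It was 12.1 for Hist1h1a, 11.7 for Hist3h2a, 11.4 for Hist1h2bc, 10.9 for Hist1h1c, 10.6 for Hist1h4c, 10.2 for Hist1h4d and 9.51 for Hist1h1e. For the same genes on the RefSeq spans it was 97.1 for Hist2h2bb, 49.4 for Hist3h2a, 28.8 for Hist1h4d and 23.5 for both Hist1h1c and Hist1h1e. It was 23.2 for Hist1h4c, 16.6 for Hist3h2ba, 12.0 for Hist1h1a and 1.59 for Hist1h2bc. Of these genes, Hist2h2bb, Hist1h1a and Hist1h2bc had RefSeq spans longer than the GENCODE transcript. Their spans were 493, 745 and 8282 bases, against 381, 741 and 1156 bases. For the others the RefSeq span was shorter. Hist2h2bb was first on both scales, and the order of the rest depended on which gene model was used. The loci of Hist2h2bb and of Gm20628 and Gm42743 overlap, and the strand setting of the counting is not given in the sources used here, so reads from these genes cannot be told apart.

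At the other end, 9 genes had no count in any library. They were Hist1h2aa, Hist1h2ah, Hist1h2ao, Hist1h2ap and Hist2h2aa1 of the H2A family, Hist1h2ba, Hist1h2bq and Hist1h2br of the H2B family, and Hist1h4m. Hist1h2aa and Hist1h2ba are known as testis histones. A count of 0 allows a level of up to 0.0819 to 0.135 CPM, depending on the library (3 counts, counting error only). A further 20 genes had counts but too few to enter the fit, with at most 22 in any library. Near-identical copies bear on these numbers. The share of 50-base windows of the transcript found in no other gene's transcript had a median of 70.0% in the 39 genes of the fit (12.4% to 100%) and 25.8% in the 29 left out (0% to 100%). Among the 9 genes with no count it was below 25% for 7. At the edge of the filter, Hist1h4j with 74 counts over all libraries was kept and Hist1h3h with 72 was not.

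The fit kept 5 of 6 H1 genes, 5 of 18 H2A, 10 of 19 H2B, 7 of 12 H3 and 12 of 13 H4 genes. It gave a log2 fold change, KD over CD, for each of these 39, and a standard error (SE) was derived from the fit. Of the 15881 genes tested, 0% passed an adjusted p of 0.05 in edgeR's quasi-likelihood test, and none of the 39 did. At the raw p of 0.01 that the study used, 1 of the 39 was called, Hist1h4k, lower in KD, where 0.17% of all genes were called lower and 0.151% higher. At a raw p of 0.05, 6 were called lower and none higher, against 1.52% and 1.66% of all genes. A log2 fold change below 0 was found for 32 of the 39, and for 51% of all genes, while 7 of the 39 and 49% of all genes were above 0. The median of the 39 was -0.31, with a range from -1.34 to 0.33, and the median of all genes was 0.00 to 2 decimals. Nothing is read from these counts, because the genes were chosen on the same contrast.

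Summed over the 68 genes, CD replicates 1 to 4 held 289, 234, 187 and 239 CPM, and KD replicates 1 to 3 held 198, 187 and 171 CPM. All values per library below follow this order. CD replicate 3 lay within the KD range, so the groups overlapped, and the other 3 CD libraries lay above all KD libraries. The means were 237 ± 41.9 CPM (SD, n = 4) and 185 ± 13.5 CPM (SD, n = 3), 22.0% lower in KD. The log2 ratio of the means was -0.36, and it was -0.25 without CD replicate 1 and -0.46 without CD replicate 3. In total RNA of a tissue piece, fewer cells of a type and less RNA per cell cannot be told apart.

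**Figure D1:**
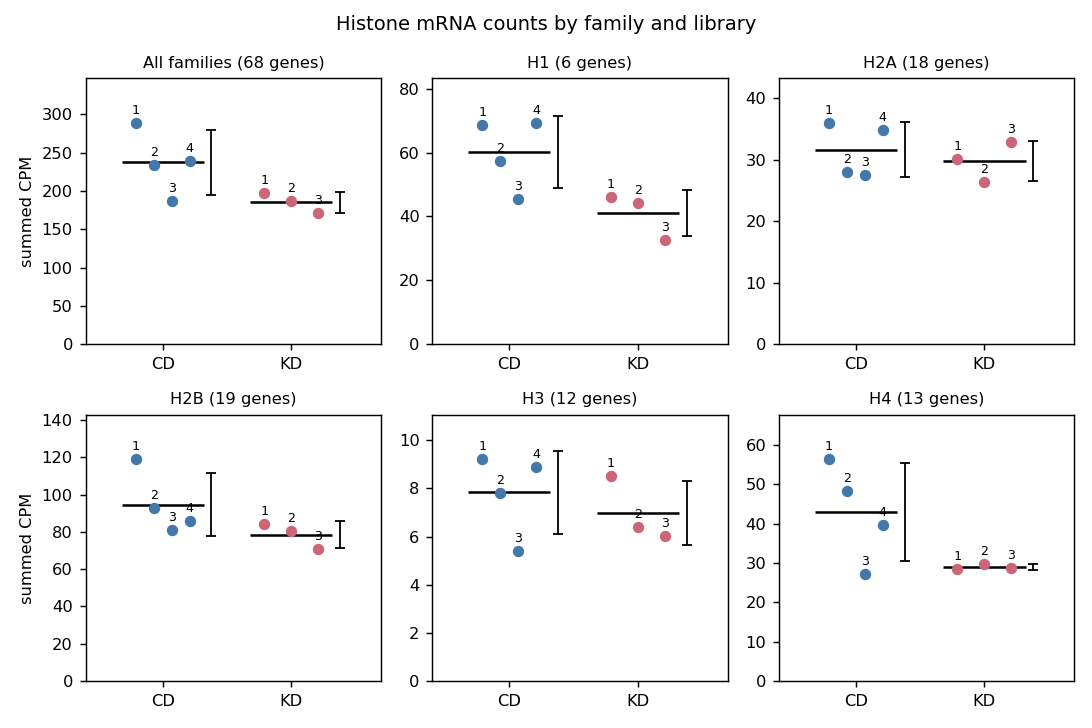
Summed CPM (vertical axis, starting at 0) of all 68 histone genes and of each family, for CD (blue) and KD (red). Each point is 1 library with its replicate number, lines are group means and bars are the SD. In H1, H2B and H4, CD replicates 1, 2 and 4 sit above every KD library and CD replicate 3 sits among or below them, while the H2A and H3 groups are mixed.

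The linker histone H1 binds DNA where it enters and leaves the nucleosome and favours its folding into compact chromatin. Summed H1 was 68.7, 57.3, 45.6 and 69.3 CPM in CD and 46.1, 44.1 and 32.7 CPM in KD, so CD replicate 3 fell below KD replicate 1 and the other CD libraries above it. The means were 60.3 ± 11.2 CPM (SD, n = 4) and 41.0 ± 7.24 CPM (SD, n = 3), 32.01% lower in KD. All 5 H1 genes in the fit had a log2 fold change below 0. Hist1h1t, the testis form of H1, had 0 to 6 counts per library and was not in the fit.

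Hist1h1e held 23.6, 21.1, 17.2 and 24.4 CPM in CD and 16.0, 16.7 and 9.61 CPM in KD. The groups did not overlap, and KD replicate 3 was the lowest library. Its log2 fold change was -0.60 ± 0.21 (SE). Part of its annotated span is shared with Hist1h2be and Gm11398 on the same strand. Hist1h1c, whose stem-loop and promoter are printed above, held 22.9, 20.7, 12.9 and 25.2 CPM in CD and 13.8, 13.6 and 10.1 CPM in KD. CD replicate 3 lay inside the KD range and the other CD libraries above it, with a log2 fold change of -0.69 ± 0.23 (SE). Hist1h1a, which encodes H1.1, held 11.1, 9.10, 8.75 and 11.1 CPM in CD and 7.74, 7.85 and 7.23 CPM in KD. Here too the groups did not overlap, with CD replicate 3 the CD library nearest to KD. The log2 fold change was -0.38 ± 0.14 (SE). Hist1h1d, the gene of H1.3, held 7.24, 3.98, 4.27 and 6.39 CPM in CD and 5.90, 4.29 and 4.80 CPM in KD. These values were mixed, and the log2 fold change of -0.12 ± 0.25 (SE) became 0.05 without CD replicate 1. Hist1h1b, the gene of H1.5, was the fifth, with 2.70 ± 0.76 CPM (SD, n = 4) in CD, 1.73 ± 0.94 CPM (SD, n = 3) in KD and overlapping libraries.

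H4 pairs with H3 at the core of the nucleosome, and its many gene copies encode the same protein. Summed H4 was 56.3, 48.4, 27.2 and 39.8 CPM in CD and 28.6, 29.8 and 28.7 CPM in KD. CD replicate 3 was the lowest of all 7 libraries. The means of 42.9 ± 12.5 CPM (SD, n = 4) and 29.0 ± 0.68 CPM (SD, n = 3) differed by 32.4%, and the SD was far smaller in KD than in CD. The log2 ratio was -0.57 with all libraries, -0.73 without CD replicate 3 and -0.41 without CD replicate 1. Of 12 H4 genes in the fit, 10 had a log2 fold change below 0.

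Hist1h4d was the H4 gene with the most counts, at 18.0, 15.1, 7.50 and 12.6 CPM in CD and 10.0, 9.99 and 7.95 CPM in KD. Hist1h4c held 13.2, 11.9, 5.73 and 10.1 CPM in CD and 7.27, 6.79 and 5.93 CPM in KD. In both, CD replicate 3 was the lowest library and the other CD libraries were above KD, and the log2 fold changes were -0.50 ± 0.28 and -0.61 ± 0.28 (SE). Hist1h4h, Hist1h4f and Hist2h4 had log2 fold changes of -0.75 ± 0.35, -0.58 ± 0.34 and -0.68 ± 0.27 (SE), with overlapping groups. Hist2h4, a gene of the chromosome 3 cluster, held 3.90, 3.44, 2.23 and 3.06 CPM in CD and 1.97, 1.62 and 2.33 CPM in KD, so only CD replicate 3 and KD replicate 3 crossed.

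Hist1h4k had the largest difference of the 39 genes. It held 3.02, 2.68, 1.56 and 1.88 CPM in CD and 0.941, 0.970 and 0.763 CPM in KD. All CD libraries were above all KD libraries, and the log2 fold change was -1.34 ± 0.33 (SE). Its annotated transcript, 312 bases with no stem-loop, shares most of its letters with other H4 copies, and 28.5% of its 50-base windows occur in no other gene. Reads of such copies may have been split between them by the counting. Without CD replicate 2 or without KD replicate 3 no histone gene reached the raw threshold. Hist4h4, the lone gene on chromosome 6, differed from this pattern with 2.94, 1.57, 2.50 and 1.80 CPM in CD and 1.67, 2.09 and 3.14 CPM in KD. KD replicate 3 was its highest library, and the sign of its log2 fold change, 0.06 ± 0.32 (SE), changed when CD replicate 2, CD replicate 4 or KD replicate 3 was left out.

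**Figure D2:**
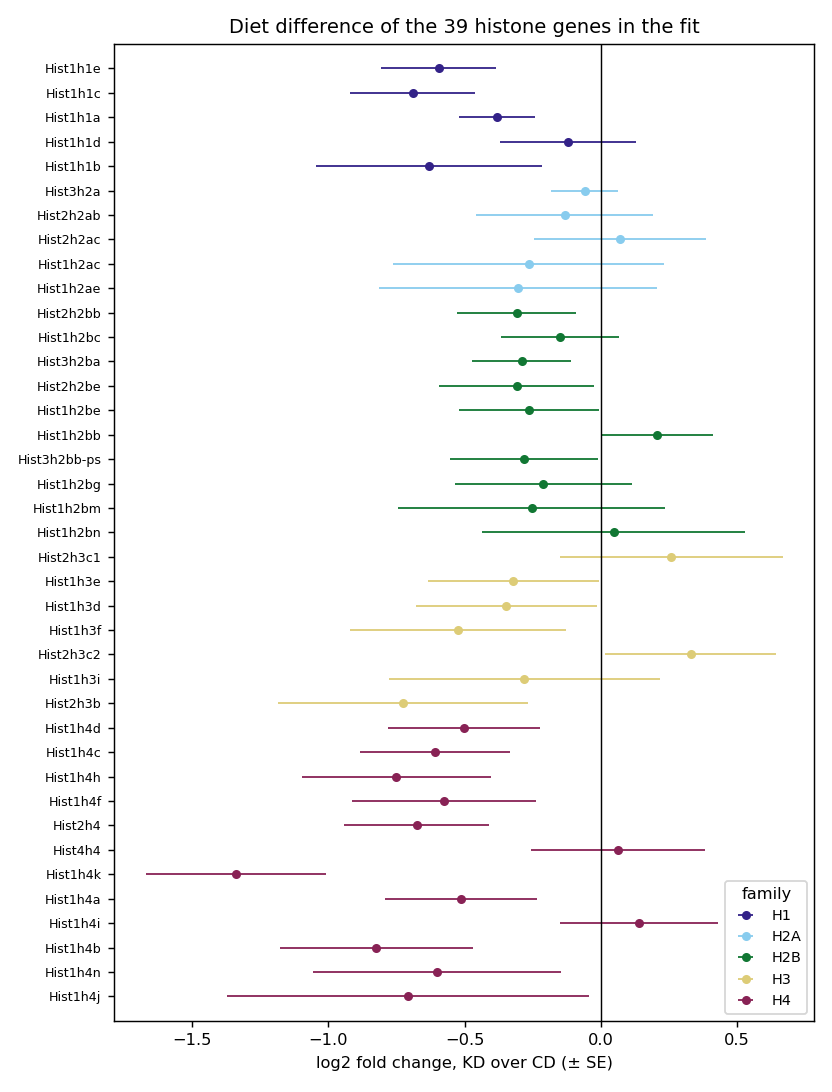
Log2 fold change, KD over CD, of the 39 histone genes in the fit (horizontal axis), ordered by family and, from top to bottom, by falling mean level. Points are estimates and bars are 1 SE. Of these estimates, 32 lie below 0, including all 5 of H1 and 10 of 12 of H4, and Hist1h4k lies farthest from 0 at -1.34.

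H2A and H2B form the dimers that flank the H3 and H4 core. H2B took the largest part of the counts, 119, 92.7, 81.0 and 86.1 CPM in CD and 84.4, 80.3 and 70.6 CPM in KD. CD replicate 3 fell below KD replicate 1 and the other 3 CD libraries stood above all KD libraries, and the KD mean was 17.1% lower. Hist2h2bb, the gene with the most counts, held 69.4, 52.5, 49.1 and 38.2 CPM in CD and 47.6, 45.1 and 33.1 CPM in KD. CD replicate 4 fell below 2 of the KD libraries, and the log2 fold change was -0.31 ± 0.22 (SE). Without Hist2h2bb the log2 ratio of the summed level of the other genes was -0.37, so the sum did not rest on it. Hist1h2bc held 9.06 to 17.1 CPM in CD and 11.3 to 14.2 CPM in KD, with KD inside the CD range. Hist3h2ba, Hist1h2be and the pseudogene Hist3h2bb-ps had log2 fold changes of -0.29 ± 0.18, -0.26 ± 0.26 and -0.28 ± 0.27 (SE), all with overlapping groups. Hist2h2be, an H2B gene whose long annotated transcript ends with a polyadenylation signal, held 6.38, 6.45, 6.59 and 12.9 CPM in CD and 5.30, 5.79 and 8.31 CPM in KD. CD replicate 4 was set apart, KD replicate 3 was the next highest, and the log2 fold change moved from -0.31 ± 0.28 (SE) to -0.01 without CD replicate 4.

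Summed H2A was 36.0, 28.1, 27.5 and 34.9 CPM in CD and 30.1, 26.3 and 32.8 CPM in KD, a difference of 5.88% between means and mixed libraries. Most of it was Hist3h2a, at 28.7, 22.3, 22.7 and 28.6 CPM in CD and 25.7, 21.3 and 26.2 CPM in KD. Its log2 fold change of -0.06 ± 0.12 (SE) had the smallest SE of the 39 genes, and its sign changed without CD replicate 1 or KD replicate 2. Hist3h2a shares bases with Trim17 and Gm44313, 1 of them on each strand. Trim17 itself held 2.37 to 3.99 CPM. Hist2h2ab, the H2A gene with the next most counts, held 1.59 to 3.76 CPM in CD and 2.14 to 2.25 CPM in KD. H3 was the family with the fewest counts, 5.40 to 9.21 CPM in CD and 6.02 to 8.51 CPM in KD. Its 2 genes with the most counts went opposite ways, Hist2h3c1 at 0.26 ± 0.41 and Hist1h3e at -0.32 ± 0.31 (log2 fold change, SE), and Hist2h3c1 changed sign without KD replicate 1, its highest library.

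**Figure D3:**
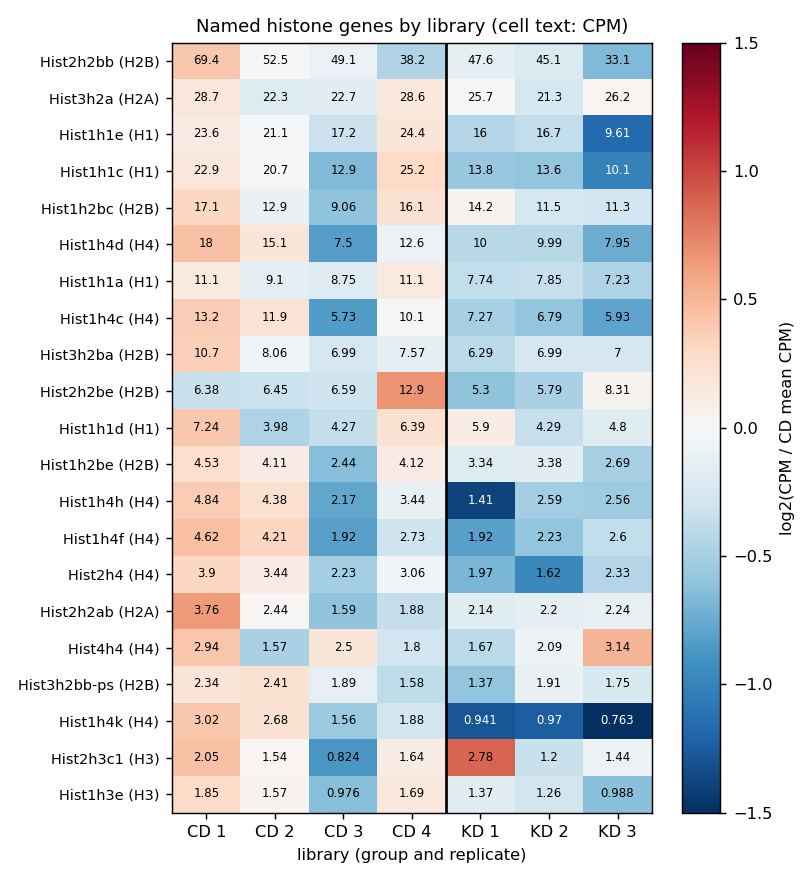
Level of the 21 named histone genes in each library. Colour is the log2 of CPM over the gene's CD mean, the printed value is the CPM, and rows follow the mean level. CD replicate 1 is red in most rows, CD replicate 3 is blue in most H4 rows, and Hist1h4k is dark blue in all 3 KD libraries.

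The ranks of single libraries were counted over the 39 genes together, and they differed between families. For the H1 genes Hist1h1a, Hist1h1c and Hist1h1e, the lowest library was KD replicate 3. CD replicate 1 was the highest of the 7 libraries in 21 of the 39 genes, whereas it was the highest in 12.6% of all tested genes. CD replicate 3 was the lowest in 12 of the 39 and never the highest, and it was the lowest in 11.6% of all tested genes. Its median log2 ratio to the CD mean was -0.28 over the 39 genes, beside -0.29, -0.24 and -0.22 in KD replicates 1 to 3. CD replicate 3 was thus as low as the KD libraries on this scale. The groups did not overlap, with all KD libraries lower, in 4 of the 39 genes, Hist1h1e, Hist1h1a, Hist1h4k and Hist1h4a, and in 2.56% of all tested genes. All KD libraries were higher in none of the 39 and in 1.64% of all tested genes. Without CD replicate 3 the count was 15 of 39, and 8.42% of all tested genes. Without CD replicate 4 and KD replicate 3, the libraries apart on the first component, it was 8 of 39, and 9.52% of all tested genes. In that comparison 33 of the 41 genes then in the fit had a log2 fold change below 0, with a median of -0.36.

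The values were also read by the annotated end of the transcript and by position. The 22 genes whose transcript runs more than 100 bases past the stem-loop held most of the counts with a stem-loop, 91.8 to 149 CPM in CD and 90.3 to 102 CPM in KD. Their median log2 fold change was -0.30 over 20 genes in the fit. The 22 genes that end within 100 bases of it held 10.4 to 18.0 CPM in CD and 10.5 to 12.2 CPM in KD, with a median of -0.58 over 7 genes. The 24 genes with no annotated stem-loop held 84.5 to 122 CPM in CD and 68.3 to 85.2 CPM in KD, with a median of -0.31 over 12 genes. A polyadenylation signal, AATAAA in the last 40 bases, was present in 15 genes. Those in the fit had a median of -0.30, beside -0.31 for those without it. By position, the median was -0.44 for 8 genes of the smaller chromosome 13 block, -0.38 for 19 of the larger, -0.22 for 8 on chromosome 3 and -0.28 for 3 on chromosome 11. The median was -0.30 over the 31 genes with at least 50% of windows in no other gene.

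Base composition moved with the diet contrast across all genes, and histone genes are short and rich in G and C. The 39 had a median GC content of 54.5% (39.8% to 67.2%) and a median transcript length of 741 bases. Among other tested genes, the 3317 with at least 55% GC had a median log2 fold change of -0.07, with 65.7% below 0. The 3773 with under 45% had a median of 0.04, with 38.1% below 0. The 3860 with 50% to 55% GC, the span that holds the histone median, had a median of -0.02, with 56.5% below 0. Short length by itself showed no such shift in the 760 other genes under 1000 bases. Their median was -0.0005, with 50.1% below 0, and the median of the 2402 with 1000 to 2000 bases was -0.03. The 206 other genes that were both shorter than 1000 bases and at least 55% GC had a median of -0.09, with 65.5% below 0. The part of base composition in the histone values was not tested.

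The replacement histones were compared because they supply chromatin in cells that no longer divide. Those listed encode forms of H1, H2A and H3, and the list holds no H2B or H4 gene. All 11 were in the fit, and none passed an adjusted p of 0.05 or a raw p of 0.05 in edgeR's quasi-likelihood test. Their summed level was 463, 511, 414 and 500 CPM in CD and 407, 408 and 438 CPM in KD, so CD replicate 3 lay within the KD range as it did for the replication-dependent genes. The median log2 fold change was -0.10, with 10 of 11 below 0. H3f3b, 1 of 2 genes of histone H3.3, had 164 ± 20.3 CPM (SD, n = 4) in CD and 138 ± 11.4 CPM (SD, n = 3) in KD and a log2 fold change of -0.24 ± 0.11 (SE). H1f0, the linker histone of differentiated cells, had 108 ± 12.98 CPM (SD, n = 4) and 91.7 ± 6.59 CPM (SD, n = 3), with a log2 fold change of -0.23 ± 0.12 (SE). H2afz, which encodes H2A.Z, and H3f3a had log2 fold changes of -0.14 ± 0.11 and -0.10 ± 0.13 (SE), and H2afy, the macroH2A1 gene, had -0.02 ± 0.11 (SE). H1fx was the exception above 0, at 0.39 ± 0.42 (SE) with under 1 CPM in every library.

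Factors that transcribe and process histone mRNA had a median close to that of all genes. The 17 listed genes had a median log2 fold change of -0.02, 10 below 0 and 7 above, and none passed a raw p of 0.05. The 2 with the most counts, the cleavage factors Cstf2 and Cpsf2, had 0.19 ± 0.10 and 0.02 ± 0.09 (SE). Npat, the coactivator of histone transcription, held 68.9 ± 7.72 CPM (SD, n = 4) in CD and 70.4 ± 2.44 CPM (SD, n = 3) in KD. Slbp, the stem-loop binding protein, held 34.3, 38.02, 34.1 and 32.7 CPM in CD and 29.4, 29.6 and 33.4 CPM in KD. Its groups overlapped only through KD replicate 3, and its log2 fold change was -0.17 ± 0.10 (SE). Lsm10 and Lsm11, the proteins particular to the U7 ribonucleoprotein, had log2 fold changes of -0.03 ± 0.17 and 0.31 ± 0.22 (SE). Casp8ap2, also called FLASH, had -0.07 ± 0.09 (SE), and Zfp473, which binds this machinery, had -0.21 ± 0.42 (SE) at 0.404 to 0.984 CPM. The U7 RNA itself, Rnu7, was listed at 0 in every library. The 14 histone chaperones, which carry histones to DNA, had a median of -0.02, and their 2 most abundant genes, Atrx and Nap1l1, had 0.12 ± 0.08 and 0.11 ± 0.11 (SE).

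Genes of DNA replication and proliferation had a median above 0. Of 27 listed, 26 were in the fit, 16 above 0 and 10 below, with a median log2 fold change of 0.19, and none passed a raw p of 0.05. Pcna, the sliding clamp of the replication fork, held 29.9 ± 2.84 CPM (SD, n = 4) in CD and 30.6 ± 2.997 CPM (SD, n = 3) in KD. Rrm1, a subunit of the enzyme that makes deoxyribonucleotides, held 27.99 to 29.6 CPM in CD and 24.7 to 26.6 CPM in KD, with a log2 fold change of -0.16 ± 0.08 (SE). The median of the list was smaller whenever 1 library was left out, at 0.04 to 0.17. The summed level of the list was 157 to 183 CPM in CD and 161 to 175 CPM in KD. Its means were 168 ± 11.7 CPM (SD, n = 4) and 167 ± 7.08 CPM (SD, n = 3), a log2 ratio of -0.008, so the summed level hardly differed.

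**Figure D4:**
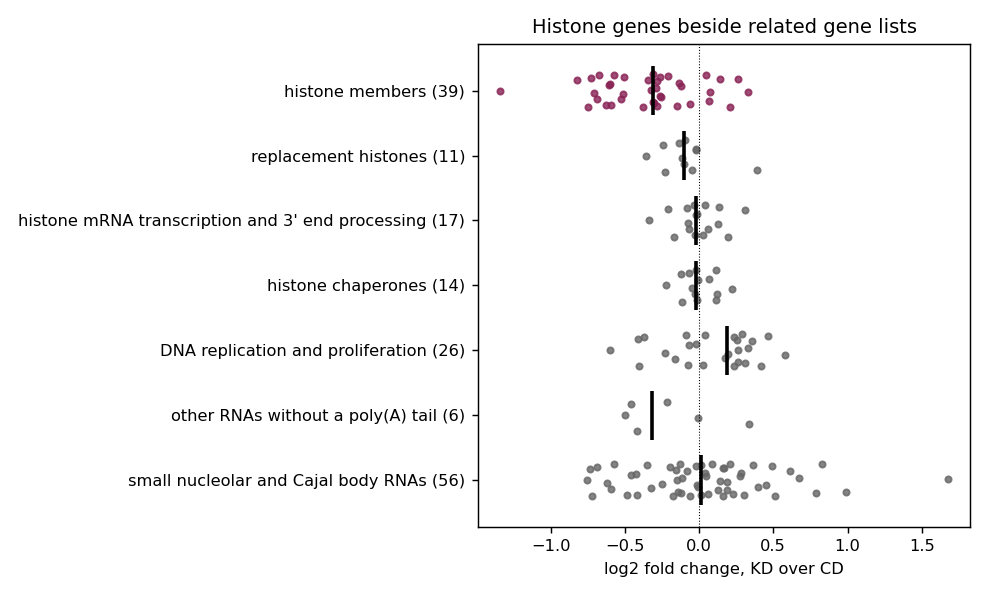
Log2 fold change, KD over CD (horizontal axis), of each gene in the fit for the histone genes (top row) and 6 related lists, with the number of genes in parentheses. Each point is 1 gene, its vertical offset has no meaning, and the bar is the list median. The medians are -0.31 for the 39 histone genes, -0.10 for replacement histones, -0.02 for processing factors and for chaperones, 0.19 for replication genes, -0.32 for other RNAs without a poly(A) tail and 0.01 for small nucleolar and Cajal body RNAs.

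Other RNAs without a poly(A) tail were examined because total RNA libraries count them as they count histone mRNA. Of 16 listed, 11 were rows of the files and 6 were in the fit, with a median log2 fold change of -0.32 and none past a raw p of 0.05. Rpph1, the RNA of ribonuclease P, held 682, 569, 310 and 342 CPM in CD and 355, 259 and 393 CPM in KD. Rmrp, the RNA of ribonuclease MRP, held 394, 285, 235 and 220 CPM in CD and 202, 194 and 238 CPM in KD. In both, CD replicates 1 and 2 stood above all KD libraries and the other CD libraries did not, and the log2 fold change of Rpph1 was -0.50 ± 0.29 (SE). Malat1, a nuclear RNA whose end is closed by a triple helix, held 3750, 4112, 10709 and 6686 CPM in CD and 6740, 9950 and 6936 CPM in KD. It was thus lowest in CD replicates 1 and 2 and highest in CD replicate 3. The small nucleolar and Cajal body RNAs had 56 of 119 genes in the fit, a median of 0.01, with 29 above 0 and 27 below. Scarna10 and Snord17 held the most counts of these and had log2 fold changes of -0.33 ± 0.19 and -0.20 ± 0.23 (SE). Snora19 was the only one past a raw p of 0.05, at 0 to 0.305 CPM in CD and 0.404 to 0.727 CPM in KD, with an adjusted p of 0.979.

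Markers of other cell types differed between the libraries as well. The summed level of 10 genes of mature oligodendrocytes, a list added after values were seen, was 4640, 4093, 1232 and 4137 CPM in CD and 4581, 2343 and 1267 CPM in KD. CD replicate 3 was the lowest of all 7 libraries here, and all 10 genes had a log2 fold change below 0, with a median of -0.41. Mbp, a myelin gene, had a log2 fold change of -0.36 ± 0.55 (SE). Endothelial and meningeal markers summed to 195 to 223 CPM in CD replicates 1 to 3, 485 CPM in CD replicate 4 and 201 to 260 CPM in KD. Of these 10 genes, 8 had a log2 fold change below 0, with a median of -0.45 that was 0.04 without CD replicate 4. Pecam1 and Ly6c1, both genes of endothelium, were lower in all KD libraries than in any CD library. The same was found for 2.56% of all tested genes. The 2 with the most counts were Slco1a4, the highest of the list at 0.02 ± 0.13, and the fibroblast gene Dcn at -0.48 ± 0.96 (log2 fold change, SE). Microglia markers summed to 460 to 731 CPM in CD and 594 to 821 CPM in KD, and 8 of their 10 genes had a log2 fold change above 0. Csf1r at 0.35 ± 0.15 and Itgam at 0.47 ± 0.16, both surface receptors of microglia, passed a raw p of 0.05 but had an adjusted p of 0.979 in edgeR's quasi-likelihood test. Itgam was higher in all KD libraries than in any CD library, as were 1.64% of all tested genes. Oligodendrocyte precursors, the main dividing cells of the adult cortex, had summed markers of 164 to 247 CPM in CD and 160 to 221 CPM in KD, with a median log2 fold change of 0.07, Pdgfra at 0.07 ± 0.18 and Gpr17 at 0.32 ± 0.23 (SE). Markers of neuroblasts and of bulb or ventral forebrain neurons summed to 61.05 to 91.7 CPM in CD and 72.6 to 109 CPM in KD. Of 8 in the fit, 4 had a log2 fold change below 0 and 4 above, from -3.97 to 4.16 with a median of 0.04, which was -0.61 without KD replicate 3 and -0.02 without CD replicate 2. Dcx at 0.27 ± 0.16 and Sox11 at 0.36 ± 0.25 (log2 fold change, SE) had the most counts, and Dlx2 was lower in all KD libraries than in any CD library. Of these, Lhx9 alone was past a raw p of 0.01, on 10.5 CPM in KD replicate 3 and at most 0.385 CPM in all other libraries. Blood cell markers summed to 20.6 to 23.9 CPM in CD and 24.4 to 30.6 CPM in KD, and Hba-a1 and Hba-a2 were listed at 0. Of 4 in the fit, 3 had a log2 fold change below 0, with a median of -0.12 and a lowest value of -0.92, and the median was 0.02 without CD replicate 3 and 0.01 without CD replicate 4. Ptprc held most of the summed level, at 13.7 ± 1.14 CPM (SD, n = 4) in CD and 19.6 ± 4.21 CPM (SD, n = 3) in KD. All of its KD libraries were above all of its CD libraries. Ptprc, the leukocyte antigen CD45, was past a raw p of 0.05 at a log2 fold change of 0.52 ± 0.16 (SE), with an adjusted p of 0.979 in edgeR's quasi-likelihood test, and Alas2 had -0.12 ± 0.20 (SE). The part of tissue composition and of library differences in the histone values was not tested.

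**Figure D5:**
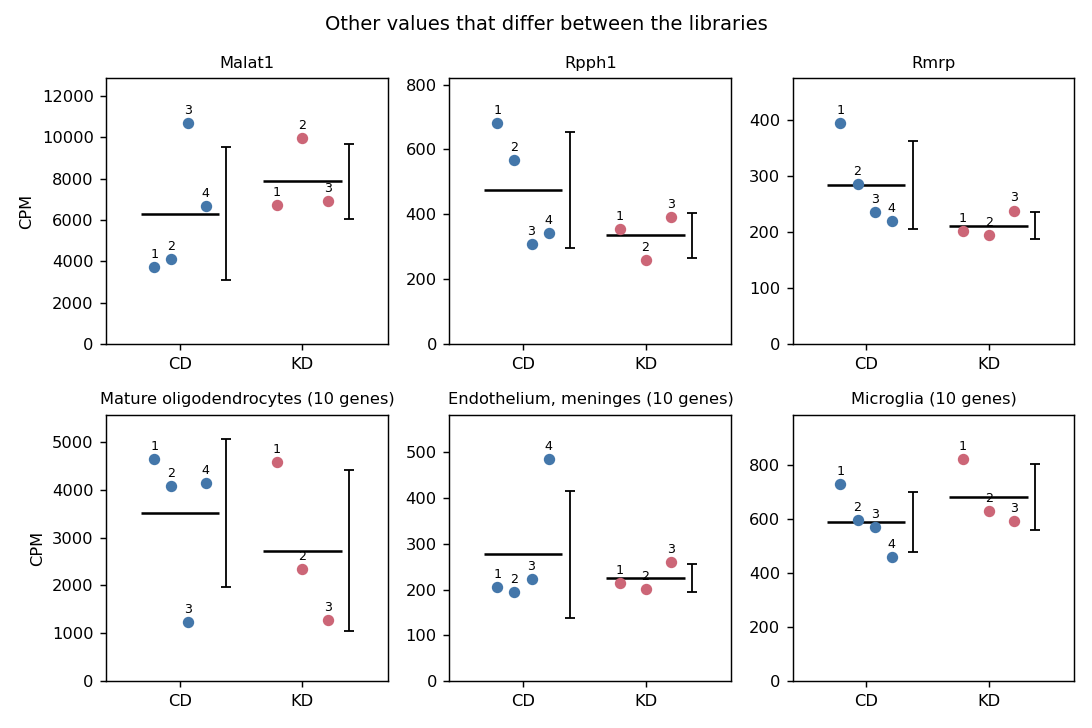
CPM (vertical axis, starting at 0) of Malat1, Rpph1, Rmrp and the summed markers of 3 cell types, for CD (blue) and KD (red). Points are libraries with their replicate number, lines are means and bars are the SD. CD replicate 3, at 1232 CPM, is the lowest library for oligodendrocyte markers and, at 10709 CPM, the highest for Malat1, and CD replicates 1 and 2 are the lowest for Malat1 and the highest for Rpph1 and Rmrp.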

How the data were processed

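RNA-seq of mouse cortex was analysed in 4 CD and 3 KD libraries, grouped by the sample labels. RNA (300 ng) from 10 mg of frozen cortex was made into stranded total RNA libraries, sequenced as 50-bp read pairs. The authors checked reads with FASTQC, aligned them to mm10 with STAR and counted them per gene inside STAR. Per gene symbol they deposited raw counts. Versions, annotation and strand setting are not given in the sources used here. Totals were 22272883 to 36614954 counts, so low counts were less precise in the smaller libraries.

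CPM were counts over the library total. The fit used edgeR 4.0.16 in R 4.3.3: filterByExpr, TMM scaling, glmQLFit and glmQLFTest without covariates, with Benjamini-Hochberg adjustment over 15881 genes. The SE was derived as the size of the log2 coefficient before shrinkage over the square root of the test's F statistic. The procedure was tested on simulated counts. Transcripts came from GENCODE M21 and promoters from RefSeq (Python 3.11.15). A transcript window held 50 bases, and genes overlapping the locus were left out of the search for copies.

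The members and the gene lists were chosen with earlier results of these data known. The histone genes named were the 15 with the highest mean CPM, the 2 highest of each family, all Hist3h and Hist4h genes and those with a raw p of at most 0.01. In each list, the 2 highest genes and those with a raw p under 0.05 were named, and all of Slbp, Npat, Lsm10, Lsm11, Zfp473 and Casp8ap2. Some genes this rule names are not reported here. Hist1h1b, Hist1h1t, Hist1h4a, Hist1h4j, Hist1h3h, Rmrp, Rnu7, Pecam1, Ly6c1, Dlx2 and further replacement histones were named after values were seen. The alternatives were other scalings and filters, edgeR's likelihood-ratio test, DESeq2 1.42.0, limma-voom (limma 3.58.1), a replicate block and leaving out libraries.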

Additional observations from a re-analysis of the deposited data

Results flagged for a closer look

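Among 41 values examined in the 4 CD libraries (the summed levels of all histone genes, of each family and of each list, Malat1 and the named histone genes), 3 had a library whose gap to the nearest other library, as a share of the group's range, was above Dixon's 95% critical value for 4 samples. Chance flags about 1 in 20 such groups, which is 2.05 of 41. The mature oligodendrocyte list among them was added after values were seen, so its flag cannot be set against this number. For Hist2h2be the share was 0.968, with CD replicate 4 at 12.9 CPM and the other CD libraries at 6.38 to 6.59 CPM. For the summed endothelial and meningeal markers it was 0.905, again through CD replicate 4, at 485 CPM against 195 to 223 CPM. For the summed mature oligodendrocyte markers it was 0.839, through CD replicate 3, at 1232 CPM against 4093 to 4640 CPM. No summed value of a histone family was set apart in this way.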

How the results depend on the processing

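The count of histone genes at a raw p of at most 0.01 was 1 under each scaling tried, each filter tried and limma-voom, 2 with the likelihood-ratio test and 3 with DESeq2. Leaving out 1 library gave 0 to 4, with 0 without CD replicate 2 or KD replicate 3 and 4 without CD replicate 3. No setting gave a histone gene an adjusted p under 0.05. Their median log2 fold change stayed between -0.43 and -0.21 when 1 library was left out, and the log2 ratio of the summed level between -0.46 and -0.25. On CPM by TMM-scaled library size that ratio was -0.35. Genes of the comparison lists at a raw p of at most 0.01 numbered 1 (Lhx9). The count was 0 with library-size scaling, 0 with a filter of 1 CPM in 3 libraries, 0 with limma-voom, 2 with upper-quartile scaling, 2 with all genes of at least 1 count, 2 with DESeq2, 3 with the likelihood-ratio test, and 0 to 2 when 1 library was left out. The cause of these shifts was not tested. Alternatives for single libraries by family, for groups that do not overlap, for the signs of the log2 fold changes and for leaving out CD replicate 4 with KD replicate 3 were chosen after seeing the data.

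The labels number replicates in both diets, and the deviations of same-numbered libraries correlated at 0.251, 0.195 and 0.098. Differently numbered libraries were not compared, so these values cannot show whether the numbers pair the mice. The main fit treated the mice as unpaired. With a replicate block over libraries 1 to 3, 4 histone genes and 1 gene of the lists were called at the raw threshold. The block gave a median of -0.33 and a log2 ratio of the summed level of -0.33. Uniqueness was judged against annotated transcripts and not the whole genome, which was not used here. The 29 of 68 genes left out of the fit had at most 22 counts in any library. Depth limits such counts, and the parts of depth and of near-identical copies in them were not tested.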
